A study of Mus musculus with 6 samples.

Results

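The constitutive proteasome was followed in mouse retinal pigment epithelium (RPE) after damaging light. Its genes were taken by name, as every measured gene whose symbol starts with Psma, Psmb, Psmc, Psmd or Psme followed by a number, without the immunoproteasome genes Psmb8, Psmb9 and Psmb10. This gave 41 of 18193 measured genes. They were 8 alpha and 8 beta genes of the barrel-shaped core particle, and 6 ATPases and 14 non-ATPase genes named for the regulatory particle. Another 3 were activators (Psme1, Psme3 and Psme4). The non-ATPase genes include the assembly chaperones Psmd5, Psmd9 and Psmd10. Psma8 and Psmb11 are subunits of testis and thymus cortex, so not every member is a constitutive subunit. The remaining 2, Psmc3ip and Psme3ip1, share the letters but encode proteins that bind a subunit or activator and are no subunits themselves. The gene of the second subunit of the Psme1 activator ring was not analysed here.

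The proteasome degrades proteins that carry ubiquitin chains. Its regulatory particle recognises, unfolds and feeds in the substrate, and catalytic beta subunits inside the core cut it. Under interferon, immunoproteasome subunits are made that take the place of the constitutive catalytic subunits in newly assembled cores, and the activator encoded by Psme1 opens the core without needing ubiquitin. In the RPE, a cell layer that takes up shed photoreceptor outer segments every day, the proteasome works beside the lysosome in protein turnover.

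All mice were of the albino strain BALB/c, and all had 1 week of dark adaptation. The dark-adapted group (3 arrays) had no further treatment, and the light-damaged group (3 arrays) was then placed under 6000 lux of white fluorescent light for 1.5 h, with RPE collected 24 h later. The labels give no age or sex and do not say whether a sample was 1 animal or a pool, so p-values cover only sample-to-sample spread, part of which may be technical. Values are log2 expression values of biotin-labelled RNA on Affymetrix arrays, 1 probe set per gene. Precision is limited by how few arrays there are. Differences are light-damaged minus dark-adapted on that log2 scale, ± standard error, and groups were compared in limma with arrays of the same replicate number as pairs. A gene was called where its p, adjusted over all 18193 genes, was under 0.05.

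Some facts of the whole series touch these results. The replicate 1 arrays stood apart in both groups. Their Gapdh 3′ minus 5′ control difference, which rises with RNA degradation or short labelled products, was 2.45 and 2.48, against 1.54 to 1.80 in the other 4 arrays. Of 14 RPE markers, 3 were called lower and none higher, and their mean log2 value lay between 12.64 and 12.97 in dark-adapted and between 12.05 and 12.49 in light-damaged arrays. Markers of photoreceptors, which adjoin the RPE, had a mean of 11.08 to 12.39 over the 6 arrays, and 8 of 15 were called lower. Of 16 macrophage and microglia markers 14 were called higher. Over all genes, 3.07% were called higher and 1.92% lower, and without the pairing none of the markers on these 3 lists was called. In such samples, fewer cells of a type and less RNA per cell cannot be told apart.

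Constitutive proteasome genes differed little between the groups. In limma with the pairs, 1 of the 41 was called higher, the activator gene Psme1, and none was called lower, beside the 3.07% and 1.92% of all genes. The share of the members called, 1 of 41, was thus close to the background. At an unadjusted p under 0.05 there were 6 members higher and 0 lower, against 9.48% and 9.57% of all genes. Without the pairing no member was called, where 0.0495% of all genes were called higher and 0% lower, and at an unadjusted p under 0.05 there was 1 member higher and 0 lower, against 3.96% and 1.98%. The members' differences ran from -0.26 (Psmc6) to 0.53 (Psme1), with a median of 0.045, and the median of all genes was -9.4e-05. A difference within 0.3 in either direction was found in 40 of 41 members (97.6%) and in 84.4% of all genes. With the pairing, the 95% interval of the difference lay within 0.5 in either direction for 33 members and within 1 for all 41. Changes of 2-fold thus fell outside that interval for every member, while smaller ones were within reach of many. Without the pairing the standard error reached 0.64, for Psmc6, against 0.11 with it, so this bound depends on the pairing. The bound also depends on limma, which draws each gene's spread towards that of all genes. The intervals thus used 6.555 degrees of freedom, of which 2 were residual.

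**Figure D1:**
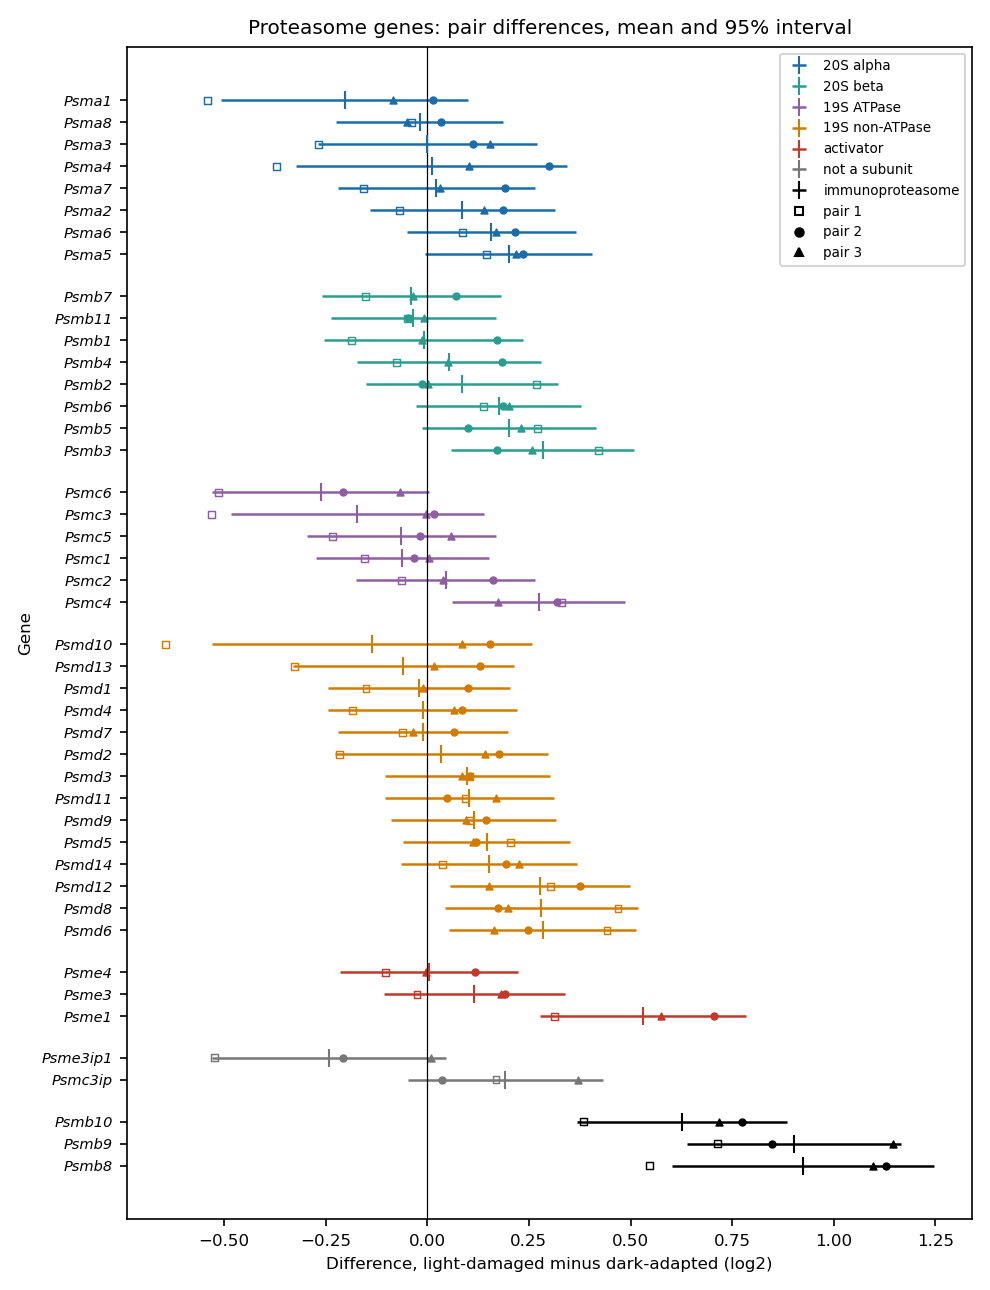
Difference between light-damaged and dark-adapted RPE (log2, horizontal axis) for the 41 members and the 3 immunoproteasome genes, ordered by role. Small symbols are the 3 pairs, the upright tick is the mean and the line its 95% interval from limma. Psme1 at 0.53 is the 1 member called, and the 3 immunoproteasome genes lie at 0.63 to 0.92.

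**Figure D2:**
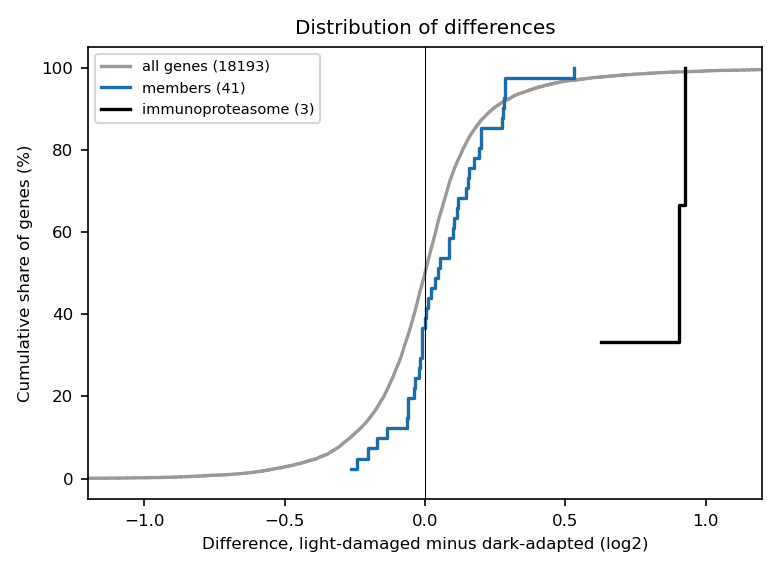
Cumulative share of genes (%, vertical axis) by difference (log2, horizontal axis, shown from -1.2 to 1.2) for all 18193 genes, the 41 members and the 3 immunoproteasome genes. The members' middle part, from the 25% quantile of -0.02 to the 75% quantile of 0.16, lies to the right of 0 more than to the left.

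The direction was not the same in every pair. In pair 1, 17 of 41 members had a difference above 0, with a median of -0.062. In pairs 2 and 3 there were 35 and 31, with medians of 0.13 and 0.086. Over all genes 49.9%, 45.2% and 53.6% were above 0 in pairs 1, 2 and 3. In all 3 pairs 16 members were above 0 and 2 below 0, against 19.9% and 20.7% of all genes. Groups did not overlap for 7 members, all higher in light-damaged arrays (Psmb5, Psmb6, Psmc4, Psmd3, Psmd6, Psmd8 and Psme1), where 6.61% of all genes were separate and higher and 3.72% separate and lower.

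Promoters are shown for 5 members: the called activator gene, the catalytic genes Psmb5 and Psmb6, and Psmd12 and Psmc6, which had differences of 0.28 and -0.26. Each line is the 250 bases before the RefSeq gene start in GRCm38.p6, 5′ to 3′ along the gene. Capitals mark matches, on either strand, to the antioxidant response core TGACNNNGC, the letters read by NRF1 and NRF2, or to the ETS core CCGGAAG. A match on the opposite strand thus appears as its reverse complement. All genes shown except Psme1 are among the 5 members with the antioxidant response core, which stood in 14.7% of members with a promoter. The lines thus do not show how common these letters are. The catalytic gene Psmb7 is not shown. The windows are chr14:55578244-55578493 on the plus strand (Psme1), chr14:54617996-54618245 on the minus strand (Psmb5), chr11:70525107-70525356 on the plus strand (Psmb6), chr11:107479278-107479527 on the plus strand (Psmd12) and chr14:45329574-45329823 on the plus strand (Psmc6).
Psme1: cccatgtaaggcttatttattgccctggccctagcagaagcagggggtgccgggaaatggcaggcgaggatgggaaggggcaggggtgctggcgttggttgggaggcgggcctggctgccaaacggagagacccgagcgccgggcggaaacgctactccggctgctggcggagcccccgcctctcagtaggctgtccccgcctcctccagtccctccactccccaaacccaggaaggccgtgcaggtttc
Psmb5: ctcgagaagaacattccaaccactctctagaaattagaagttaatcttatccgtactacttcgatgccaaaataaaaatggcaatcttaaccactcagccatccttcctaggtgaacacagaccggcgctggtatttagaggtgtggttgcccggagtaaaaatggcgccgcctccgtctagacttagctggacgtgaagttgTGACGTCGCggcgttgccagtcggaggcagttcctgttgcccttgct
Psmb6: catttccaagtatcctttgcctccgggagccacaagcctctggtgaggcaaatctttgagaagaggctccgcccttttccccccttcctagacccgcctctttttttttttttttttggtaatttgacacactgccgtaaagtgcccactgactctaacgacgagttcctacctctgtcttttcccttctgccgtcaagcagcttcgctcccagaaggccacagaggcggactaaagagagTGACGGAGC
Psmd12: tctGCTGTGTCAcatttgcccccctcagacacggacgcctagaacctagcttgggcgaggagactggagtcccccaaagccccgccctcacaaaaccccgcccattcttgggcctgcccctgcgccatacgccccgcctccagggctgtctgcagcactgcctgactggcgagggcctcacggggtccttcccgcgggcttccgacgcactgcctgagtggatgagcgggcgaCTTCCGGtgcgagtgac
Psmc6: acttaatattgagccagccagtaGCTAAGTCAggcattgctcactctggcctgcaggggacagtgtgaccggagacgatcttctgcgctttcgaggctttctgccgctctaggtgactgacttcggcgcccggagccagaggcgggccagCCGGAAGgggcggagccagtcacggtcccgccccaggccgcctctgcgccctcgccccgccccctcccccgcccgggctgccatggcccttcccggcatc

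The antioxidant response core stood in 5 of the 34 members with a promoter in the table (14.7%), namely Psmb5, Psmb6, Psmc6, Psmd12 and Psmd9, and in 13.5% of the 14452 measured genes with one. The differences of members with these letters ran from the lowest of all, in Psmc6, to one of the higher ones, in Psmd12. None of these 5 members was called, and a relation between the letters and the differences was not tested. The ETS core stood in 12 of 34 members (35.3%), against 11.8% of measured genes. The CCAAT box (CCAAT) stood in 15 members (44.1%, against 39.4%) and the GC box (GGGCGG) in 20 (58.8%, against 53.4%). Of the letters linked to interferon, GAAANNGAA stood in 3 members (8.82%, against 7.51%) and TTCNNNGAA in 0 of 34, against 7.42%, and neither stood in the window of Psme1. These 6 searches overlap in part, covered 250 bases only, and are descriptions of letters.

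The alpha subunits form the outer rings of the core and its gate. None of the 8 alpha genes was called, and the median difference was 0.016, which was 0.15 without replicate 1 and -0.051 without replicate 2. Psma5 read 11.62, 11.74 and 11.95 in dark-adapted replicates 1, 2 and 3 and 11.76, 11.97 and 12.17 in the light-damaged ones. Each light-damaged array was higher than its pair, while the groups overlapped, and the difference was 0.20 ± 0.09 (limma adjusted p = 0.28). It was 0.031 when probe sets with the suffixes x_at, s_at and a_at, which may match several transcripts or genes, were left out. The Psma5 probe set then used was far dimmer and read 5.44 to 5.51 in all 6 arrays. Another bright Psma5 probe set, with the suffix a_at, gave 0.13 ± 0.11. Psma6 read 12.40, 12.39 and 12.57 in dark-adapted and 12.48, 12.61 and 12.74 in light-damaged arrays, again higher in each pair with overlapping groups. Its difference was 0.16 ± 0.09 (limma adjusted p = 0.41). This Psma6 probe set has the suffix x_at, and the other, dimmer probe sets of the gene gave 0.10, 0.05 and -0.06. Psma1 had the lowest alpha difference, -0.20 ± 0.13, with a pair 1 difference of -0.54 against 0.01 and -0.08 in pairs 2 and 3. Psma8, the alpha subunit of testis, lay between 5.38 and 5.62 in all 6 arrays, and its difference was -0.02 ± 0.09.

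The beta subunits form the inner rings, and Psmb5, Psmb6 and Psmb7 carry the chymotrypsin-like, caspase-like and trypsin-like activities. None of the 8 beta genes was called, with a median of 0.069. Psmb5 read 11.89, 11.97 and 12.03 in dark-adapted and 12.16, 12.07 and 12.26 in light-damaged arrays, so the groups did not overlap, although the gap was small. The means were 11.96 ± 0.07 and 12.16 ± 0.10 (SD, n = 3), a difference of 0.20 ± 0.09 with a 95% interval of -0.01 to 0.41 (limma adjusted p = 0.29). Psmb6 read 12.07, 11.96 and 12.02 against 12.20, 12.14 and 12.22, and its groups were separate as well. The difference was 0.18 ± 0.09 with an interval of -0.03 to 0.38 (limma adjusted p = 0.34). Psmb7 read 11.44, 11.53 and 11.86 against 11.29, 11.60 and 11.83, with overlapping groups, pairs of mixed sign and a difference of -0.04 ± 0.09 (limma adjusted p = 0.88), which was 0.017 without replicate 1. Psmb3, a structural beta subunit, had the largest beta difference. It read 12.50, 11.73 and 11.69 in dark-adapted and 12.92, 11.90 and 11.95 in light-damaged arrays, with both replicate 1 arrays far above the rest. The difference was 0.28 ± 0.09 (limma adjusted p = 0.17), and its second, dimmer probe set gave 0.19 ± 0.08. Psmb11, the beta subunit of the thymus cortex, had a difference of -0.03 ± 0.08.

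The 6 ATPases form the ring that unfolds substrates. None was called, and their median was -0.062, against 0.014 without replicate 1 and -0.11 without replicate 3. They held members at opposite ends. Psmc4 read 11.09, 10.96 and 11.04 in dark-adapted and 11.42, 11.28 and 11.22 in light-damaged arrays, with groups that did not overlap. The difference was 0.27 ± 0.09 (limma adjusted p = 0.16), and its second probe set gave 0.16 ± 0.09. Psmc6 read 9.54, 10.91 and 11.08 against 9.03, 10.71 and 11.01. It was lower in each pair, by an amount far smaller than the gap between replicate 1 and the others, and the difference was -0.26 ± 0.11 (limma adjusted p = 0.27), or -0.14 without replicate 1. The other probe sets of Psmc6 gave -0.07 ± 0.11 and -0.35 ± 0.12. Psmc1, Psmc2, Psmc3 and Psmc5 had differences of -0.06, 0.05, -0.17 and -0.06. Neither Psmc4 nor Psmc6 passed the test over all genes, so their opposite signs are given as values.

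The non-ATPase genes encode the lid and base scaffold, the ubiquitin receptor Psmd4, the deubiquitinase Psmd14, and the assembly chaperones Psmd5, Psmd9 and Psmd10. None of the 14 was called, and their median was 0.10. All 14 were above 0 in pair 2, 12 in pair 3 and 8 in pair 1. Psmd6, a lid subunit, read 11.31, 11.12 and 11.30 in dark-adapted and 11.75, 11.37 and 11.47 in light-damaged arrays. The groups did not overlap, the difference was 0.28 ± 0.10 (limma adjusted p = 0.17), and a second probe set gave 0.23 ± 0.08. Psmd12, another lid subunit, read 10.50, 10.79 and 11.22 against 10.81, 11.16 and 11.37. Each pair went up while the groups overlapped, with a difference of 0.28 ± 0.09 (limma adjusted p = 0.17). Psmd8 had a difference of 0.28 ± 0.10 and separate groups. The ubiquitin receptor Psmd4 had -0.01 ± 0.10, the deubiquitinase Psmd14 0.15 ± 0.09, and the scaffolds Psmd1 and Psmd2 had -0.02 ± 0.09 and 0.03 ± 0.11. The chaperones Psmd5, Psmd9 and Psmd10 had 0.15, 0.11 and -0.14.

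Activators bind the core in place of the regulatory particle. Psme1, which encodes the alpha subunit of the interferon-inducible activator ring, rose. It read 10.29, 10.17 and 10.33 in dark-adapted and 10.60, 10.87 and 10.90 in light-damaged arrays, so every light-damaged array was above every dark-adapted one. The means were 10.26 ± 0.08 and 10.79 ± 0.17 (SD, n = 3), which is 1.44-fold, or 0.53 ± 0.11 (adjusted p = 0.0428 in limma). The call is narrow: without the pairing the adjusted p was 0.36, without replicate 2 it was 0.14 and without replicate 3 it was 0.22, and it was also lost with median centring (0.056) and with trend and robust settings (0.0519). The difference itself lay between 0.44 and 0.64 over 12 alternatives. Psme3, a nuclear activator of another type, read 7.47, 8.74 and 8.73 against 7.44, 8.93 and 8.91 with a difference of 0.12 ± 0.09 (limma adjusted p = 0.60), or 0.19 without replicate 1. A slightly dimmer Psme3 probe set read 7.70, 7.83 and 7.93 in dark-adapted and 8.10, 8.22 and 8.44 in light-damaged arrays. In a limma fit over all 34945 single-gene probe sets, added after seeing the data, that probe set was called with a difference of 0.44 ± 0.09 (adjusted p = 0.0453), where 2.38% of probe sets were called higher and 1.39% lower. The probe sets of Psme3 thus gave different calls, and the difference between them was not tested. Psme4, a large activator of another type, had 0.004 ± 0.091.

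**Figure D3:**
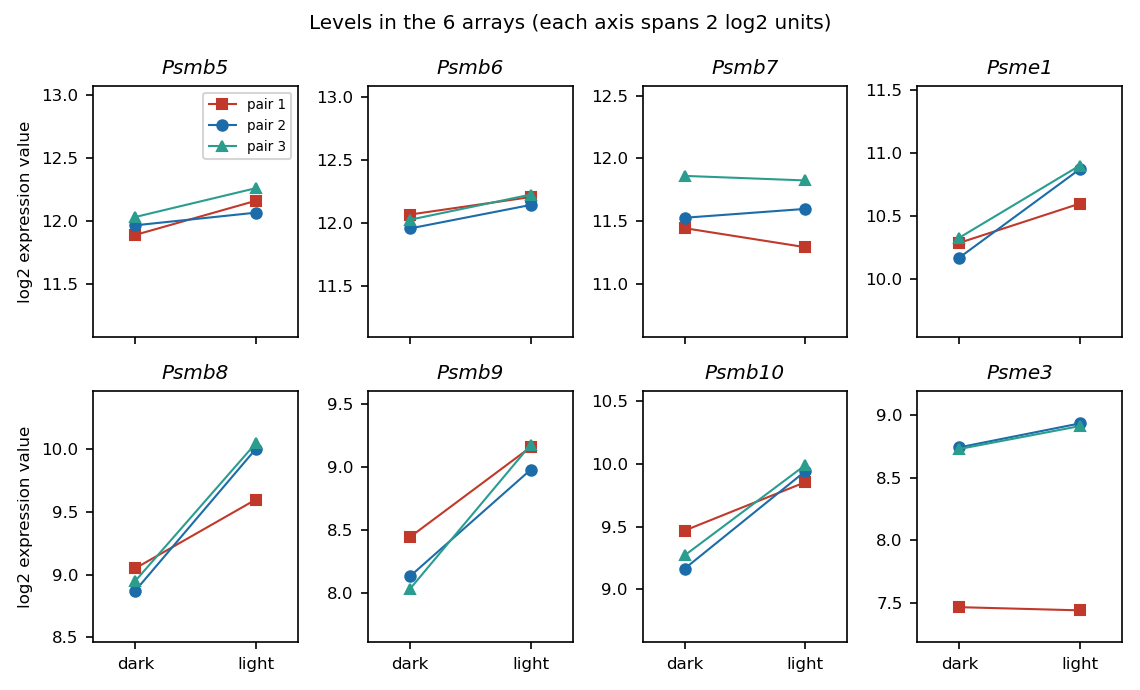
Log2 expression values (vertical axes, each spanning 2 log2 units) of the constitutive catalytic genes Psmb5, Psmb6 and Psmb7, the immunoproteasome genes Psmb8, Psmb9 and Psmb10, and the activator genes Psme1 and Psme3 in dark-adapted and light-damaged arrays, lines joining pairs. The light-damaged arrays of Psme1 at 10.60 to 10.90 lie above its dark-adapted arrays at 10.17 to 10.33, while those of Psmb7 overlap.

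Each immunoproteasome gene was set against the constitutive gene whose place its product takes. Psmb8, Psmb9 and Psmb10 rose by 0.92 ± 0.13, 0.90 ± 0.11 and 0.63 ± 0.11 (limma adjusted p = 0.0168, 0.0098 and 0.0292). Their calls were lost without the pairing (adjusted p = 0.16, 0.15 and 0.22) and without replicate 3 (adjusted p = 0.086, 0.059 and 0.16), and that of Psmb10 also without replicate 2 (adjusted p = 0.078). Within an array, the log2 ratio of Psmb8 to Psmb5 was higher in light-damaged arrays by 0.28, 1.03 and 0.87 in pairs 1, 2 and 3, a mean of 0.72 ± 0.40 (SD, n = 3 pairs) or 1.65-fold. The ratio of Psmb9 to Psmb6 was higher by 0.58, 0.66 and 0.95, on average 1.66-fold, and that of Psmb10 to Psmb7 by 0.54, 0.70 and 0.75, on average 1.59-fold. For each of the 3 ratios the exact two-sided permutation p was 0.10, also after adjustment over the 3, which is the smallest that 20 assignments of 6 arrays allow, and over the 8 sign changes of the pairs it was 0.25, also the smallest possible. The ratio was higher in 3 of 3 pairs for all 3. Macrophage and microglia markers were higher in the same group, and 14 of 16 were called. Their summed unlogged level was 21506 to 30322 in dark-adapted and 30823 to 47088 in light-damaged arrays. That sum leans on the brightest marker, Csf1r, with means of 13.60 and 13.45. Csf1r was the 1 marker with a difference below 0 (-0.15 ± 0.09). The median difference of these markers was 1.01, 0.96 and 0.87 in pairs 1, 2 and 3. Single markers differed in that order, as in Cd68 (2.27, 2.18 and 1.87) and Ptprc (0.95, 1.49 and 1.38). Psme1 had 0.31, 0.70 and 0.57 in these pairs, and the median of the 3 immunoproteasome genes was 0.55, 0.85 and 1.10. Other cell types had called markers too. Of 10 pericyte and fibroblast markers 3 rose, with a summed level of 19986 to 26047 against 26329 to 28106, and of 7 neutrophil markers 2 rose (S100a8 and S100a9), with 1167 to 1365 against 1478 to 2072. Of 8 Müller glia markers 2 rose (Vim and Gfap), but 4 of the 8 were below 0 and the median was -0.0023. Apoe, Aqp4 and Glul had -0.39, -0.29 and -0.22, each lower in all 3 pairs, and none was called lower. The summed level of the Müller glia markers was 36824 to 44405 against 35390 to 44687. Of 8 endothelial markers 1 rose (Vwf) and 4 were below 0, with 2607 to 2974 against 2759 to 3619. None of these markers was called without the pairing. The part of these cell types in the result was not tested.

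Genes that work with the proteasome were read from lists of the pathway, and their counts stand beside 3.07% of all genes called higher, 1.92% called lower, and 9.48% higher and 9.57% lower at an unadjusted p under 0.05. Of 9 assembly and maturation factors none was called, with a median of 0.014 and 1 gene on each side at an unadjusted p under 0.05. Psmg4, an assembly chaperone of the alpha ring, read 8.76, 8.88 and 9.07 against 9.10, 9.27 and 9.50, separate groups with a difference of 0.39 ± 0.09 that just missed the threshold (limma adjusted p = 0.0570). With the mean of all its probe sets the difference was 0.17. Ublcp1, a proteasome phosphatase, had -0.55 ± 0.20, with -1.23 in pair 1 against -0.24 and -0.18 in the others, and -0.21 without replicate 1. Pomp, which drives maturation of the core, had 0.11 ± 0.11. Of 11 proteasome-bound receptors, deubiquitinases and shuttles none was called, and 2 were higher at an unadjusted p under 0.05, Txnl1 (0.31 ± 0.09) and the shuttle Rad23b (0.28 ± 0.10). Txnl1 changed sign, to -0.24, when probe sets with the suffixes x_at, s_at and a_at were left out, and Rad23b had 0.12 with the mean of all probe sets. The shuttle Ubqln1 had -0.28 ± 0.13, but -0.11 without replicate 1 and 0.058 with the mean of all probe sets, and the deubiquitinases Usp14 and Uchl5 had 0.09 and -0.003.

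Of 8 regulators none was called, with 2 higher at an unadjusted p under 0.05, against 9.48% of all genes. Nfe2l1 encodes NRF1, which raises subunit genes when proteasome activity falls short. It read 9.43, 9.99 and 9.83 against 9.54, 10.00 and 9.83, an almost equal pattern in both groups with a difference of 0.04 ± 0.09 (limma adjusted p = 0.85). NRF1 is controlled mainly at the level of the protein, which these arrays do not measure. Maff and Mafk, small partners of NRF1 and NRF2, had 0.46 ± 0.10 (limma adjusted p = 0.0550) and 0.29 ± 0.09, and Ngly1, the glycanase that processes NRF1, had -0.28 ± 0.12, or -0.12 without replicate 1. Of 11 genes of the p97 segregase, which extracts ubiquitylated proteins from membranes and complexes, none was called, with 1 on each side at an unadjusted p under 0.05, against 9.48% and 9.57% of all genes. Ubxn4, Ufd1 and Faf2 had 0.29, -0.23 and -0.18, where Ufd1 had -0.15 without replicate 1 and 0.0096 with the mean of all probe sets, and Vcp, the segregase itself, had -0.13 ± 0.13. Of 15 autophagy genes none was called. The 3 at an unadjusted p under 0.05 were all lower, Calcoco1 at -0.37 ± 0.09, Atg12 at -0.54 ± 0.14 and Gabarapl2 at -0.28 ± 0.09, and the list's median was -0.13, where 9.57% of all genes were lower at that p. Atg12 had -0.34 without replicate 1 and -0.21 with the mean of all probe sets, and Gabarapl2 had -0.15 with that mean. Of the 6 ubiquitin and E1 genes, 1 was measured, the E1 enzyme Uba6 at -0.17 ± 0.12, with -0.50 in pair 1 against -0.03 and 0.02 in the others.

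Members also varied between replicates of a group. In both groups, 26 of 41 members (63.4%) had their lowest value in replicate 1, against 31.8% of all genes, and 8 members (19.5%) had their highest value there, against 40.0%. The median of replicate 1 minus the mean of replicates 2 and 3 was -0.30 in dark-adapted and -0.42 in light-damaged arrays, against 0.05 and 0.07 over all genes. For Psmc6 it was -1.45 in the dark-adapted and -1.83 in the light-damaged group. Psme3 had -1.27 and -1.48, and Psmd10 had -1.17 and -1.93. Psmb3 went the other way, with 0.79 and 1.00. Its second probe set read 9.93, 9.88 and 9.94 in dark-adapted and 10.10, 10.08 and 10.12 in light-damaged arrays, so that this probe set did not share the replicate 1 shift. The ATPases had the lowest medians (-0.55 and -0.89) and the beta genes the ones nearest to 0 (-0.15 and -0.06). The Gapdh 3′ minus 5′ control moved with the replicate 1 arrays as given above, and its part in these shifts was not tested.

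**Figure D4:**
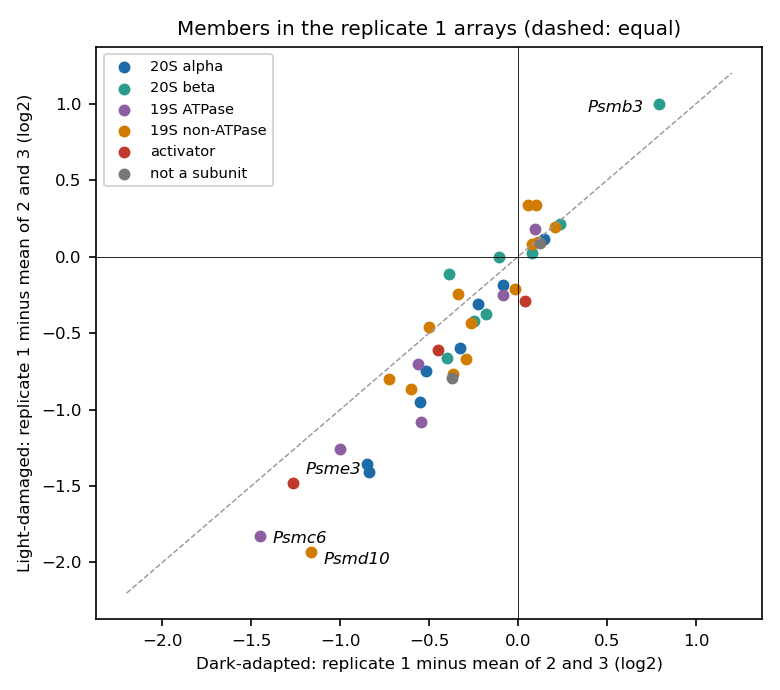
Replicate 1 minus the mean of replicates 2 and 3 (log2) in dark-adapted (horizontal axis) and light-damaged arrays (vertical axis) for the 41 members, coloured by role, with a dashed line where both are equal. Most members lie below 0 on both axes, down to -1.93 for Psmd10, and Psmb3 lies above at 0.79 and 1.00.

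Without the replicate 1 arrays, Psme1 was again the 1 member called in limma, where 4.55% of all genes were called higher and 2.30% lower, and 4 members were higher and 0 lower at an unadjusted p under 0.05, against 11.7% and 9.28%. The median of the members was 0.12. Of the 46 further probe sets of 22 members, 22 had the opposite sign to the chosen one, and in 0 of these were both below an unadjusted p of 0.05. Only 3 of the 46 were below that p at all, so the 0 says little about how well probe sets of a gene matched.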

How the data were processed

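Biotin-labelled total RNA of RPE was hybridised to 6 Affymetrix arrays. Deposited log2 values of probe sets came from RMA, per the submitters' processing notes, with no version stated; the log2 scale was read from their range (3.717 to 14.82). RMA understates differences of very dim and very bright genes, and there are no detection calls. Of 45101 probe sets, 64 were controls, and the platform annotation gave 1 symbol to 34945, several to 932 and none used here to 9160. The probe set with the highest mean over all 6 arrays stood for a gene.

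The comparison used limma 3.58.1 (R 4.3.3; eBayes, two-sided, Benjamini-Hochberg over 18193 genes), with the replicate number as block as the rule for the members states, and 2 residual degrees of freedom. The labels do not say what a number marks. Deviations from group means of same-numbered arrays correlated, across genes, at 0.89, 0.62 and 0.86, but those of replicates 2 and 3 follow in part from the shared replicate 1 shift. The procedure was run on data simulated from the paired model itself. Such a run cannot show whether the pairing or the replicate 1 arrays suit that model. Members, lists and tests were chosen with earlier results of these data known. Values per array are given for the catalytic genes, called members, the 2 members of each role with the smallest unadjusted p, and the extremes, and up to 3 genes per pathway list are named. Psmd8, Pomp and other members were added after their values were seen. Promoters came from RefSeq (GRCm38.p6) and matched 34 of 41 members by symbol.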

Additional observations from a re-analysis of the deposited data

How the results depend on the processing

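The number of members called higher, 1 with the replicate block, was 0 with no replicate block, with median centring and with trend and robust settings, 0 to 1 when a pair was left out, and 2 when any probe set of a member was counted, a setting chosen after seeing the data. No alternative called a member lower. The median of the members lay between -0.013 (without replicate 2) and 0.12. The activators' median was 0.24 with the mean of all probe sets. Over all genes, 9 were called higher and 0 lower with no replicate block, and without a pair 160 to 827 and 68 to 418. Array weights gave 1099 and 776, and the filter on dim genes, which tests fewer genes, gave 365 higher. The 3 calls of immunoproteasome genes were 0 with no replicate block and 0 to 3 without a pair. Assembly factors called higher were 0 to 1 without a pair. With array weights 1 assembly factor, 2 shuttles or receptors, 2 regulators and 1 p97 gene were called higher and 1 autophagy gene lower, and 1 regulator was called with the mean of all probe sets. Causes were not tested. The ratios were not recomputed with array weights or with trend and robust settings, which do not enter them. Arrays without detection calls give no bound for dim genes.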
